A study of Oryza sativa Japonica Group with 4 samples.

Results

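The genes described here are 7 genes of the rice anther: RTS, CYP703A3, C6, C4, BURP13, PTC1 and MTR1. They act in the tapetum, the innermost layer of the anther wall, or in the making of the pollen wall. They were taken by name, as symbols or synonyms in the tables that pair Affymetrix probe sets with rice genes, and they are 7 of 17905 genes that have a probe set paired with exactly 1 gene. The names were chosen with earlier results of these data known. Shares and ranks set beside all probe sets are therefore descriptions and not a test. Each of the 7 had a single such probe set, so no second probe set of the same gene was at hand. The probe set of PTC1 carries the suffix _s_at, which marks probes that can match more than 1 transcript. The probe set of MTR1 has A1 in its name where the other names have S1, and which strand it reads was not checked here.

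Panicles of Oryza sativa Japonica Group were measured on 4 arrays, with 1 array per group. At early to late meiosis the pair of groups was wild type and the polaris mutant (pola). At ripening, 10 to 15 days after pollination, it was wild type and an RNAi line against POLA in the T2 generation. Each array held RNA pooled from 20 panicles of 10 plants grown in a greenhouse under natural light. Cultivar, mutant allele and the promoter of the RNAi construct were not given in the sources used here. For the RNAi sample the free-text description speaks of wild lines, while the other labels give the RNAi genotype, which was followed. With 1 array per group there was no replicate check and no test was run, and the precision of every value is limited by that number. Panicles hold many cell types besides the anther, so fewer tapetum cells and less RNA per cell cannot be told apart.

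Signals are MAS5 values on a linear scale. All 4 arrays had been scaled to the same trimmed mean, but the wild-type arrays had medians of 124 at meiosis and 163 at ripening, against 51.8 for the mutant and 65.7 for the RNAi line, so dim probe sets read lower on the mutant and RNAi arrays. For GAPDH, signal at the 3' end over signal at the 5' end, a sign of RNA quality, was 2.04 (meiosis) and 2.01 (ripening) in wild type, 4.22 in the mutant and 3.32 in the RNAi line. A second pair of GAPDH probe sets gave 1.01, 0.629, 1.16 and 0.0988 in that order. The part of these differences in the results was not tested. The signal of POLA itself was not analysed here, since no probe set carries that name.

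The tapetum feeds the developing pollen. It secretes the precursors of sporopollenin, the tough polymer of the outer pollen wall, and lipid transfer proteins that help carry them, and it then breaks down by programmed cell death. In rice, the bHLH factors TDR and EAT1 and the PHD-finger protein PTC1 govern that sequence. Genes of this programme are active in young anthers and are spent by the time grains fill.

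Wild-type panicles at ripening were set against those at meiosis to compare the signal of each gene between these stages. RTS, CYP703A3, C6, C4 and BURP13 were bright at meiosis and dim at ripening, by at least 24.4-fold each. Folds given for a gene are quotients of the signals themselves, while log2 ratios were taken after a pseudocount of 23.4 was added to each signal, so the log2 ratio of a dim gene is smaller than its fold. PTC1 and MTR1 were of moderate signal at both stages and differed less than 2-fold between them. So 5 of the 7 genes were at least 2-fold lower at ripening and none was higher. Over all 32852 probe sets kept by the filter on low signal, 14.6% were at least 2-fold lower and 18.4% at least 2-fold higher. The filter required that the higher of both signals reach the median of its own array, and all 7 genes passed it in this comparison. RTS, CYP703A3 and C6 passed it through meiosis alone, since their ripening signals were under that array's median of 163. Genes kept in this way can only come out lower, so their direction is no result. C4 and BURP13 were above the median on both arrays. The median log2 ratio of the 7 genes was -6.63, against 0.10 over all kept probe sets. Since the 7 genes were chosen with earlier results of these data known, this contrast is a description.

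Among the wall synthesis and transport genes, CYP703A3 encodes a cytochrome P450 that hydroxylates fatty acids for sporopollenin. Its signal was 6416 in wild type and 9148 in the mutant at meiosis, and 12.9 in wild type and 33.6 in the RNAi line at ripening. Both meiotic arrays were far above both ripening arrays, where the gene lay below the array median. The log2 ratio of ripening over meiosis in wild type was -7.47, and at least a 39.3-fold difference remained when the ripening signal was raised to a common floor of 163, the highest of the array medians. C6, a lipid transfer protein of the tapetum that is needed for orbicules and pollen exine in rice, read 15787, 21610, 115 and 34.9 in the same order of arrays. Its ratio was -6.83, at least 96.7-fold. C4, another anther gene of the tapetum, read 20228, 28210, 182 and 77.9. Its log2 ratio was -6.63 and its quotient of signals 111-fold, with a ripening signal just above the floor.

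Among the secreted proteins, RTS is a tapetum gene whose loss makes rice male sterile. Its meiotic signal was 17231 in wild type and 28011 in the mutant, against 31.7 in wild type and 3.08 in the RNAi line at ripening. Its log2 ratio of -8.29 at ripening over meiosis in wild type was the lowest of the 32852 kept probe sets, and with the floor the difference was at least 105-fold. Under the other settings tried it ranked between 1 and 3 from the lowest. On the same count CYP703A3 ranked 9 (8 to 45 over the settings), C6 ranked 19 (4 to 27), C4 ranked 26 (1 to 31) and BURP13 ranked 137 (74 to 178). With the common floor C4 was lowest and CYP703A3 ranked 45, so the order among these genes depends on how signals near background are treated. BURP13, also named RAFTIN1, is a BURP-domain protein of the orbicules, the particles that carry wall material from the tapetum to the pollen. It read 6236, 9771, 256 and 20.9, with a log2 ratio of -4.49 between the stages in wild type and a quotient of signals of 24.4-fold. Of all kept probe sets, 194 had a ratio of -4 or lower, 0.591% of them, and these 5 genes are among them.

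PTC1 and MTR1 did not share this pattern. PTC1, a regulator of tapetal cell death and pollen wall formation, read 485 (wild type) and 785 (mutant) at meiosis, then 377 (wild type) and 91.9 (RNAi line) at ripening. Its stage ratio in wild type was -0.34, and the low array was that of the RNAi line. MTR1, a fasciclin-like secreted glycoprotein made in the male germ cells that acts on tapetum and microspores, read 558, 761, 380 and 806. Its stage ratio was -0.53 in wild type, and the highest of its 4 signals was on the RNAi array at ripening. By signal, then, these probe sets do not separate meiotic from ripening panicles in wild type as the other 5 do.

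**Figure D1:**
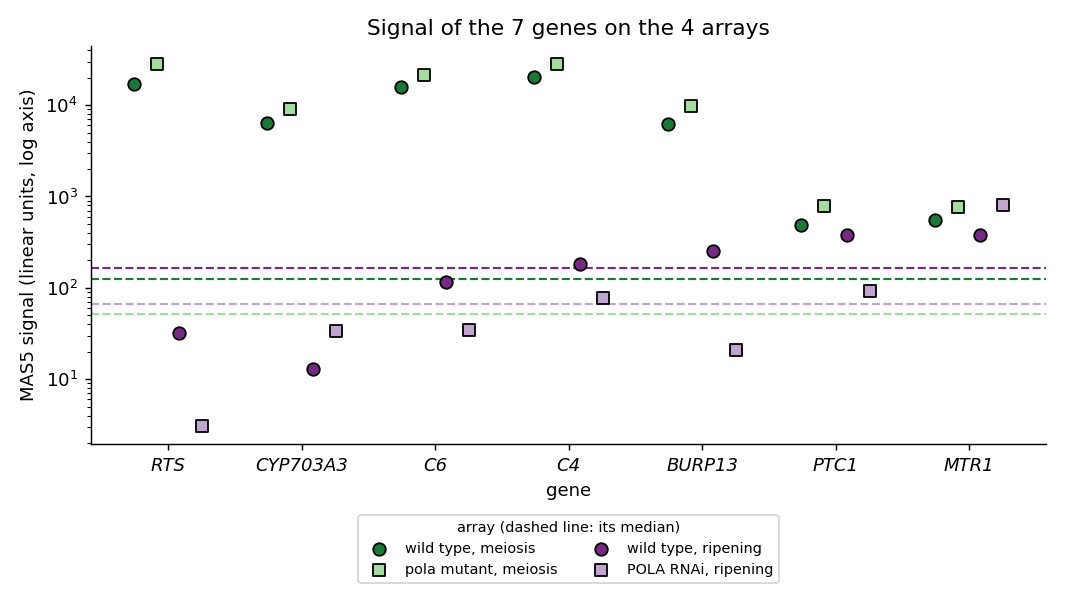
MAS5 signal (log axis) of each of the 7 genes on the 4 arrays, 1 point per array, with a dashed line at each array's median. RTS, CYP703A3, C6, C4 and BURP13 lie between 6236 and 28210 on both meiotic arrays and at 256 or below on both ripening arrays, while PTC1 and MTR1 stay between 91.9 and 806; points are to be compared within a gene, since probe sets differ in brightness.

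The same stage difference was read from the other pair of arrays, the RNAi line at ripening over the mutant at meiosis, which shares no array with the wild-type pair but differs in genotype too. There 6 of the 7 genes were at least 2-fold lower and none was higher, while 16.5% of 32002 kept probe sets were lower and 17.5% higher. RTS, CYP703A3, C6 and BURP13 were under the RNAi array's median of 65.7, so they passed the filter through the mutant array alone. They could only come out lower, so their direction is no result. C4 and PTC1 were above the median on both arrays. The RNAi signals of all 6 were under the common floor, so their differences are bounds. They were at least 173-fold for C4, 171-fold for RTS, 132-fold for C6, 59.8-fold for BURP13, 56.0-fold for CYP703A3 and 4.80-fold for PTC1. MTR1, above the floor on both arrays, had a log2 ratio of 0.08.

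Because the medians of the arrays differed, the rank of a probe set within its own array gives a second scale, used here to compare one gene between arrays. The percentile of RTS was 99.9 (wild type) and 99.98 (mutant) at meiosis, and 18.1 (wild type) and 8.72 (RNAi line) at ripening. C4 stood at percentiles 99.96, 99.99, 52.7 and 52.6, so its rank at ripening was nearly the same in both genotypes although its signal was 2.33-fold lower in the RNAi line. BURP13 stood at 97.9, 98.8, 61.1 and 29.9, and PTC1 at 74.5, 80.6, 69.4 and 55.0. At ripening CYP703A3 stood at 3.62 in wild type and at 37.9 in the RNAi line, both below the array median, so no difference is read from these ranks. MTR1 stood at 76.4, 80.2, 69.5 and 81.2, and alone of the 7 ranked no lower on the RNAi array than on the mutant array.

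**Figure D2:**
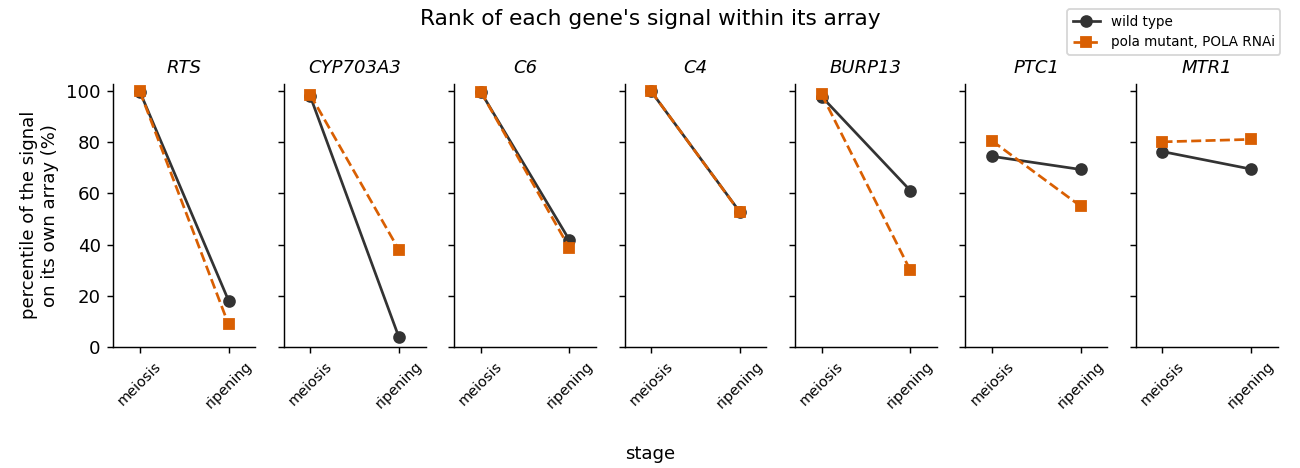
Percentile of each gene's signal among all probe sets of its array, at meiosis and ripening, in wild type (circles, solid line) and in the mutant and RNAi arrays (squares, dashed line). The lines of C4 and C6 run together, BURP13 and PTC1 end lower in the RNAi line than in wild type, and MTR1 ends higher; the ripening points of RTS, CYP703A3 and C6 are below the array median and have no order.

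Mutant against wild-type panicles at meiosis is the comparison that asks whether the mutant panicle lacked or kept the transcripts of these genes. All 7 genes were above the array median on both arrays and somewhat higher in the mutant, by 1.36-fold for MTR1 to 1.63-fold for RTS. The log2 ratios were 0.70 for RTS, 0.67 for PTC1, 0.65 for BURP13, 0.51 for CYP703A3, 0.48 for C4, 0.45 for C6 and 0.43 for MTR1. None was at least 2-fold higher or lower, in a comparison in which 3.36% of 31056 kept probe sets were higher and 17.5% lower. All 7 passed the filter.

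Bright probe sets as a whole were also higher on the mutant array. Among the 2860 brightest, the top 5% by mean signal of both arrays, 78.9% had a ratio above 0, with a median of 0.17 and an interquartile range from 0.03 to 0.30. RTS, C6, C4, CYP703A3 and BURP13 belong to that range of signal, and their ratios lay above its interquartile range. Among 128 kept probe sets of the signal level of RTS and C6 the interquartile range ran from 0.20 to 0.33, and among 600 of the level of CYP703A3 and BURP13 from 0.03 to 0.28. At the level of PTC1 and MTR1, 2514 probe sets had an interquartile range from -0.24 to 0.24. The direction was the same for the 7 genes under all 8 alternatives, with a median between 0.34 and 0.82. One alternative, the mean over probe sets, repeats the main values, with 1 probe set per gene. The size stayed under 2-fold except for RTS, which had 1.01 when the median ratio of all probe sets was set to 0. Without replicates the spread of such a ratio between panicle pools of one genotype is not known, and a difference of this size cannot be set against it.

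**Figure D3:**
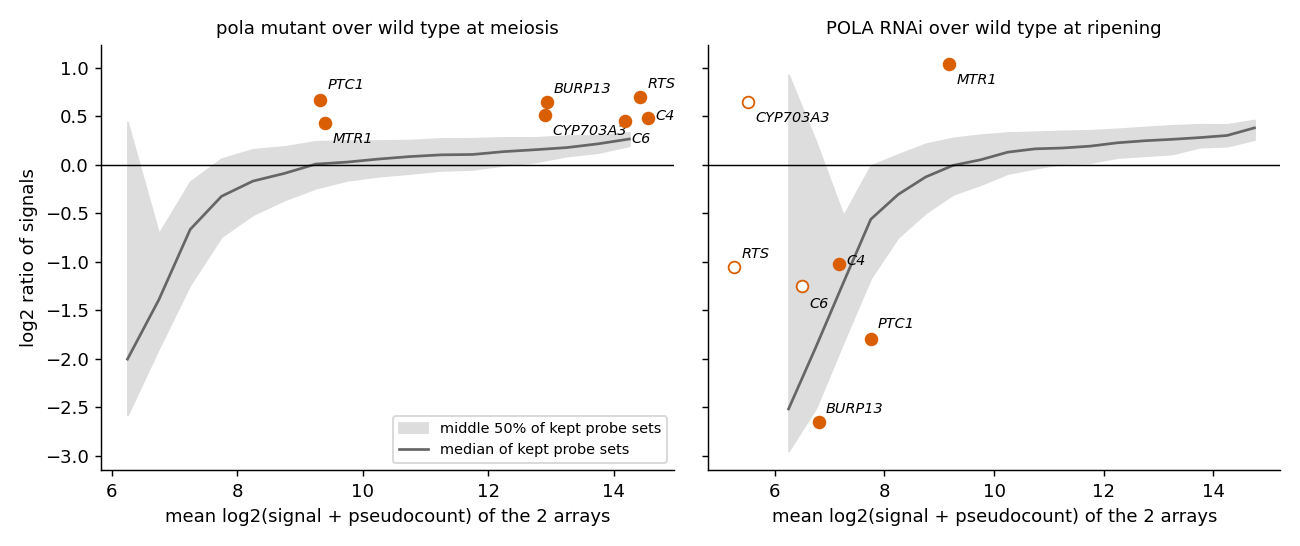
Log2 ratio of signals against the mean log2(signal + pseudocount) of both arrays, for mutant over wild type at meiosis (left) and RNAi line over wild type at ripening (right), with the median (line) and interquartile range (band) of all kept probe sets in steps of 0.5 that hold at least 20 probe sets. In the left panel the 7 genes (filled points) lie above the band or, for RTS and C4, beyond its drawn end. In the right panel C4 lies inside it, BURP13 and PTC1 below and MTR1 above, and open points are genes that did not pass the filter.

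At ripening, the RNAi line was compared with wild type in a stage when most of these genes were near background. RTS, CYP703A3 and C6 did not pass the filter on low signal and have no usable ratio there. Of the 4 genes kept, C4, BURP13 and PTC1 were at least 2-fold lower in the RNAi line and MTR1 was at least 2-fold higher. BURP13 passed the filter through wild type alone, since its RNAi signal of 20.9 was under that array's median of 65.7. A gene kept in this way can only come out lower, so its direction is no result. In this comparison 22.1% of 31771 kept probe sets were at least 2-fold lower and 5.08% higher, so lower values were common.

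BURP13 had a log2 ratio of -2.66, from 256 in wild type to 20.9 in the RNAi line. PTC1 read 91.9 and 377, with -1.80, and C4 read 77.9 and 182, with -1.02. In all 3 genes the RNAi signal was below the common floor, and with it the differences were at least 1.57-fold for BURP13, 2.31-fold for PTC1 and 1.11-fold for C4. The interquartile range of kept probe sets of the same level ran from -1.83 to -0.52 for C4, which lay inside it. It ran from -2.51 to 0.24 for BURP13 and from -1.17 to -0.01 for PTC1, and both lay below it. PTC1 kept a difference of at least 2-fold under all 8 alternatives, from -2.05 to -1.16. BURP13 did so under 7 of the 8, all but the common floor. C4 did so under 3 of the 8, and its ratio was -0.0061 after quantile normalization. In each of these counts the mean over probe sets repeats the main value, since each gene has 1 probe set.

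MTR1 had a log2 ratio of 1.04, from 380 in wild type to 806 in the RNAi line, where the interquartile range of probe sets of its level ran from -0.30 to 0.28. Both signals were above the floor. The ratio stayed above 0 under all 8 alternatives, from 0.79 to 1.44, and was under 2-fold in 2 of them (0.91 when the median signal was the pseudocount and 0.79 when centred on the brightest probe sets). The mutant and RNAi comparisons share no array, and MTR1 was the one kept gene above 0 in both.

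**Figure D4:**
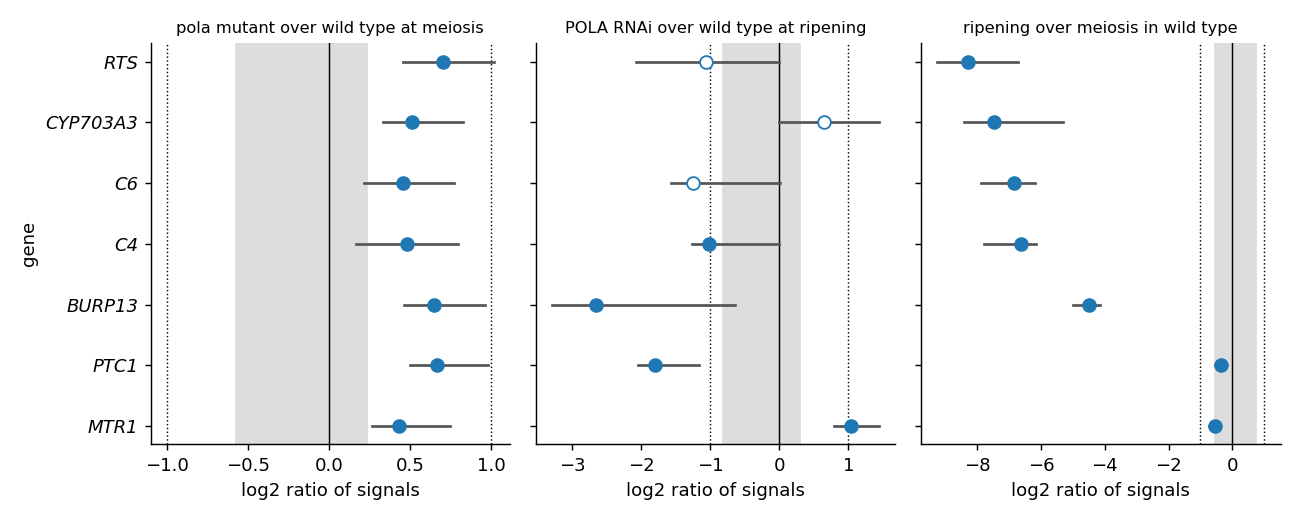
Log2 ratio of signals of each gene in 3 comparisons (points; open where the gene did not pass the filter), with the range over the 8 alternatives (bars), the interquartile range of all kept probe sets (grey band), 0 (solid line) and 2-fold (dotted lines). All 7 genes lie to the right of the band for the mutant, C4, BURP13 and PTC1 to its left and MTR1 to its right for the RNAi line, and RTS, CYP703A3, C6, C4 and BURP13 far to its left for ripening over meiosis.

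Other genes of the same pathway came from a list by role of 44 symbols, chosen like the 7 genes with earlier results of these data known. It matched 19 genes, of which 17 had a probe set, the 7 genes and 10 others. At ripening over meiosis in wild type 5 of the 10 others were at least 2-fold lower and 1 was higher, with a median log2 ratio of -0.78. Over all kept probe sets 14.6% were lower and 18.4% higher. The lower ones held regulators that act before the wall genes. TDR, a bHLH factor that drives tapetal degeneration, read 1232 and 1334 at meiosis in wild type and mutant and 25.2 and 15.6 at ripening, a stage ratio of -4.69 in wild type, or -2.92 with the floor. EAT1, a bHLH factor that switches on tapetal proteases, read 1033, 1643, 141 and 301, with -2.68. BHLH142, also named TIP2, which acts with TDR upstream of EAT1, read 748, 634, 104 and 6.36, with -2.60, or -2.20 with the floor. MSP1, a receptor-like kinase that limits the number of germ cells, read 2952, 2851, 1425 and 1750, with -1.04. In wild type at ripening TDR, EAT1 and BHLH142 were under the array median of 163. They passed the filter through meiosis alone and could only come out lower. The higher one was the MADS-box gene MADS3 with 1.02, named after its value was seen.

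Of the proteases of tapetal breakdown, AP25, an aspartic protease, had a stage ratio of -2.67 in wild type, from 10412 at meiosis to 1619 at ripening, and read 11032 in the mutant and 2009 in the RNAi line. CP1, a cysteine protease, read 173, 144, 170 and 3.30, with a stage ratio of -0.02 in wild type. In the mutant none of the 10 other genes was 2-fold higher or lower, and 6 of 10 were above 0, with a median log2 ratio of 0.10. Over all kept probe sets 3.36% were higher and 17.5% lower in the mutant. EAT1 had 0.66 there, TDR 0.11, AP25 0.08, MSP1 -0.05, BHLH142 -0.23 and CP1 -0.23. In the RNAi line 8 of the 10 passed the filter, none was 2-fold higher and 1 was lower, CP1 with -2.86. Over all kept probe sets 5.08% were higher and 22.1% lower in that line. CP1 passed the filter through wild type alone, so it could only come out lower, and with the common floor it had -0.06. EAT1 had 0.98 in the RNAi line, but it passed the filter through the RNAi array alone, so it could only come out higher.

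**Figure D5:**
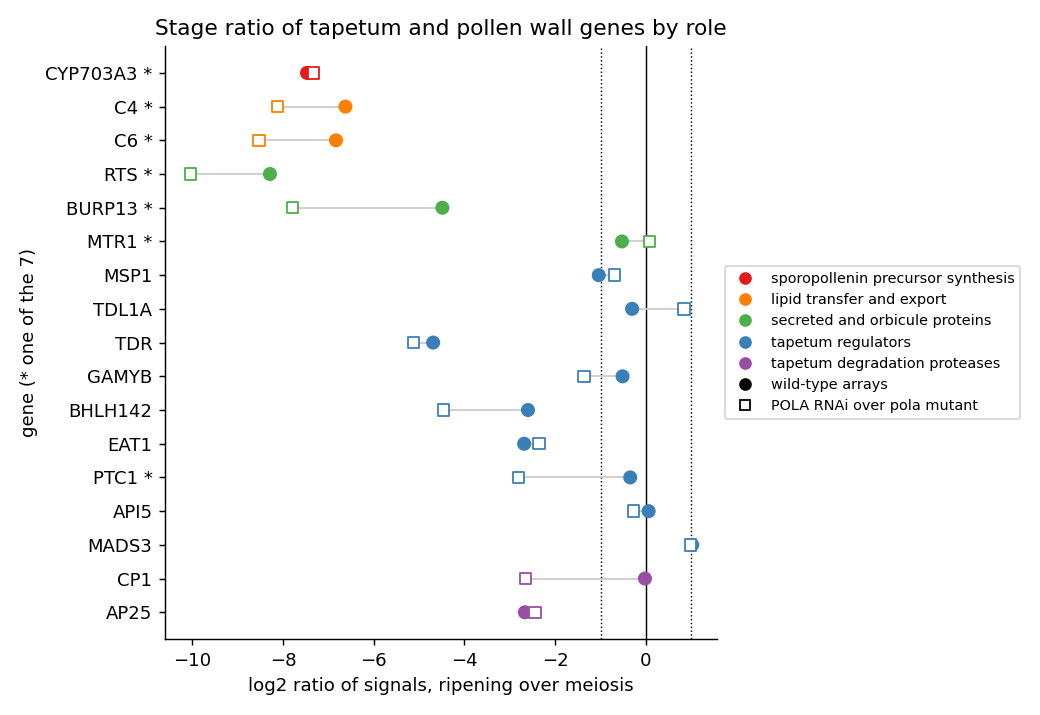
Log2 ratio of ripening over meiosis for the 17 measured genes of the pathway, coloured by role, from the wild-type arrays (filled circles) and from the RNAi line over the mutant (open squares), with 0 (solid line) and 2-fold (dotted lines). RTS, CYP703A3, C6, C4 and BURP13 lie at -4.49 or below in both pairs, TDR at -4.69 and -5.12, and MADS3 near 1.

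Genes whose profile over the 4 arrays was most like the mean of the 7 were sought among 2444 genes with a descriptive name, by the Euclidean distance of log2 signals after each gene's own mean was removed. The 6 nearest were BCL1 (LOC4346166, also listed as bHLH080) at a distance of 0.51, the germin-like genes GER8 at 0.63 and GER5 at 0.70, TDR at 0.90, a gene listed as peroxidase (LOC4339222) at 1.01 and the aquaporin gene NIP4-1 at 1.31. GER5 read 12531 and 12202 at meiosis in wild type and mutant, and 315 and 94.1 at ripening. NIP4-1 read 4671, 7499, 140 and 7.54. The 7 genes themselves lay between 1.35 for BURP13 and 5.60 for MTR1 from their own mean, so these 6 were nearer to it than any of the 7, and 4 arrays give few points for such a measure.

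In the order of genes on the chromosomes none of the 7 had another of them among its 3 neighbours on either side, and none overlapped another gene. Of the 42 neighbours 26 had a probe set and 25 passed the filter at ripening over meiosis in wild type, of which 5 were at least 2-fold lower and 3 higher. Over all 32852 kept probe sets 14.6% were lower and 18.4% higher, so these counts do not set the neighbours apart. The gene beside C6, LOC4350789, was higher at ripening, with 24295 against 14.3. Beside MTR1, GT43C read 3899 and 144, a stage ratio of -4.55, and LOC4344393 read 3239 and 329, with -3.21, while MTR1 itself had -0.53. These neighbours were named after their values were seen.

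Among markers of other tissues, the grain genes moved with the stage as a list, while the meiocyte and floral organ lists were mixed. The summed signal of 12 grain genes was 3223 in wild type and 3215 in the mutant at meiosis, and 304536 in wild type and 411365 in the RNAi line at ripening, and all 12 were at least 2-fold higher at ripening in wild type. Of the 12, 6 reached the array median at meiosis in wild type, and the others could only come out higher. The near-equal sums at meiosis hold unlike genes, since the mutant signal was 668 against a wild-type 47.5 for RAB21, and 24.3 against 146 for RA14. Each of these passed the filter through its brighter array alone, which fixed its direction. Both RA14 signals were under the common floor. The 7 measured of 16 meiocyte symbols summed to 8323, 7306, 2979 and 3349 in the same order, and none of them was 2-fold different in the mutant. At ripening over meiosis in wild type 6 of them passed the filter, of which 3 were at least 2-fold lower and none was higher. PAIR2, with 1108 and 998, and DMC1A, with 177 and 188, hardly differed. The 7 floral organ identity genes summed to 43904, 56309, 34413 and 41001, and the 3 measured of 8 green tissue symbols to 21034, 28591, 35811 and 38670. Of the floral organ genes 2 were at least 2-fold lower and 2 higher at ripening in wild type. Over all kept probe sets 14.6% were lower and 18.4% higher. For mature pollen 2 of 11 symbols were measured, EXPB9 with 66.7, 81.2, 3293 and 3344 and EXPB10 with 24.9, 10.6, 182 and 692. No marker was listed at 0. In the mutant 6 of the 7 floral organ genes were above 0, with a median log2 ratio of 0.34, and so were all 3 green tissue genes, with 0.28. Of these RBCS, the small subunit of Rubisco, had 1.55. These values stand beside the median of 0.51 for the 7 genes. The part of tissue make-up in these ratios was not tested.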

How the data were processed

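Per the labels' protocols, RNA came from a Trizol extraction and was biotin-labelled in the one-cycle procedure of Affymetrix. The authors deposited 1 intensity per probe set and array, a linear signal from MAS5 per the submitters' processing notes. Detection calls and the version of MAS5 were not given in the sources used here. Trimmed by 2%, the mean signal was 500.1 on each array. After 187 control probe sets were set aside, 57194 remained. Of these, 22436 were paired with 1 gene in the probe table, 95 with more than 1, and 34663 were not in it. Symbols, gene order and overlaps between genes were read from the RefSeq gene table of another rice assembly, which held all 17905 genes. Its start and end positions gave that order and those overlaps.

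Ratios are log2(signal + 23.4), with the 25th percentile over the 4 arrays as the pseudocount, one array minus the other. Probe sets whose brighter signal was under its array's median were dropped, and ratios of 1 or more, or -1 or less, count as 2-fold. A gene under the median of the other array was kept through its brighter array alone, so its direction was fixed. No test was run. The common floor was 163. The members, lists and settings were chosen with earlier results of these data known. All 7 members are named, with up to 4 further pathway genes per role, those with the largest ratios, and the 6 genes nearest in profile. Of the list symbols, 4 matches to unrelated genes were taken out. The steps were tested on simulated data. Python 3.11.15, numpy 2.4.6, pandas 2.3.3, statsmodels 0.14.6 and matplotlib 3.10.9 were used.

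The alternatives were the median ratio set to 0, loess centring (span 0.3), quantile normalization, pseudocounts of 5.85 and 103, the floor, the mean over probe sets (the same values here, with 1 probe set per gene), no filter, a 75th percentile filter and a 4-fold threshold. Centring on the brightest 5% of probe sets was added after the data were seen. The 8 alternatives of a single ratio are those that do not change the filter or threshold.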

Additional observations from a re-analysis of the deposited data

Results flagged for a closer look

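C4, BURP13 and PTC1 were higher in the mutant at meiosis and lower in the RNAi line at ripening, each against wild type of its stage, with the single array of each group going opposite ways. BURP13 passed the filter at ripening through wild type alone, so its lower direction there was fixed and is no result. The log2 ratio at ripening minus that at meiosis was -1.50 for C4, -3.30 for BURP13 and -2.46 for PTC1. With the common floor the values were -0.63, -1.29 and -1.90, and for C4 it was -0.17 after quantile normalization. MTR1 was lower at ripening than at meiosis in wild type and about equal in the RNAi and mutant arrays, and the stage ratios differed by 0.61. These differences were not tested, and the mutant and the RNAi line are different lines sampled at different stages. The ripening signals of C4, BURP13 and PTC1 in the RNAi line were all under the common floor.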

How the results depend on the processing

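The count of 5 genes lower and none higher at ripening in wild type was the same under each of 11 alternatives, with a median log2 ratio of -7.80 after quantile normalization, -5.81 with the median signal as pseudocount and -5.30 with the common floor. RTS, CYP703A3 and C6, kept through the meiotic array alone under the main filter, could only be counted there as lower. For the mutant, 1 gene passed 2-fold when the median ratio of all probe sets was set to 0, and none under the others. The RNAi comparison depended most on the processing. The median over the 4 genes that passed the filter, -1.41, ran from -1.66 to -0.40 over the 8 alternatives of a ratio. The median over all 7, -1.06, is the ratio of RTS, which did not pass it, and was -0.66 with the median ratio set to 0, -0.17 after quantile normalization, -0.029 after loess centring, -0.65 with the median signal as pseudocount and 0.00 with the floor, which raises both signals of 3 genes to the same value. Its count of 3 lower genes became 2 with the median ratio set to 0, after quantile normalization or loess centring and with the median signal as pseudocount, 1 with the floor, 5 with no filter, 0 with the 75th percentile filter and 1 at 4-fold, and its count of 1 higher gene became 0 with the median signal as pseudocount, when centred on the brightest probe sets and at 4-fold. C6, which did not pass the filter there, turned from -1.25 to 0.012 after loess centring. All probe sets moved too: the share at least 2-fold lower was 17.5% in the mutant and 22.1% in the RNAi line, and 8.73% and 13.5% after quantile normalization. No paired analysis was possible because each group has 1 array. The cause of these changes was not tested.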
